A study of Mus musculus with 12 samples.

Results

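Liver RNA of mice given a viral vector for the human glucocorticoid receptor beta (hGRB) was compared with liver RNA of mice given the same kind of vector for green fluorescent protein (GFP). The comparison took in 8 arrays, 4 labelled AAV-hGRB and 4 labelled AAV-GFP, of 12 in the series, and 18121 genes with signal well above background on 4 or more of them, of 28784 genes on the array. All animals were male C57BL/6 mice aged 3 months whose liver lacked the glucocorticoid receptor (GR, gene Nr3c1), so neither group had its own liver GR. AAV is adeno-associated virus, a vector that carries a gene into cells. The remaining 4 arrays held liver RNA of the same kind of mouse given phosphate-buffered saline (PBS), and their levels are given beside the compared groups. No source used here gives the vector dose, the promoter in the vector, the time from injection to sampling or the Cre line behind the deletion. Samples carry replicate numbers, but nothing says that each is a separate animal. The p-values therefore measure the spread between these samples, which may be technical.

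The human GR gene gives 2 main receptor forms by alternative splicing. GR alpha binds cortisol and switches genes on or off, while GR beta has a different end in place of part of the hormone-binding domain, does not bind the usual hormone and is best known for opposing GR alpha. In a liver without GR there is no GR alpha in the deleted cells for it to oppose. Several of the genes described here belong to the interferon response: interferons bind their receptors, Janus kinases (JAK) phosphorylate STAT proteins, and these join IRF9 on short DNA elements in front of genes whose products detect, cut or trap viral material.

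The levels are log2 processed intensities minus the 75th percentile of their array, so 0 marks that percentile and 1 unit is a doubling. A difference is the AAV-hGRB mean minus the AAV-GFP mean on that scale. Intensities at the 75th percentile ran from 209.3 to 597.7, and 54.94% to 66.4% of probes were well above background on an array. The arrays lay on 6 slides. Slides 5 and 6 each held 1 array of either compared group: AAV-hGRB replicate 1 and AAV-GFP replicate 2, and replicate 3 of both. AAV-hGRB replicates 2 and 4 were on slide 3, AAV-GFP replicate 1 on slide 1 and replicate 4 on slide 4. For these arrays group and slide cannot be told apart. AAV-GFP replicate 4 was also scanned on another day than the other 11 arrays. AAV-GFP replicate 3 stood apart before any comparison. Its 75th percentile was the 209.3, against 348.6 to 597.7 on the other 11 arrays, and its best correlation with any other array was 0.964, while each of the other 11 reached at least 0.978. Its mean over 12 hepatocyte genes was 7.10, against 7.79 to 7.82 on the other AAV-GFP arrays. Some of the results that it moves are therefore given with and without it. Results given only with it may depend on it too. On all 12 arrays the mean over the hepatocyte genes was 7.10 to 7.92, far above the 75th percentile, as the tissue label has it. The 4 probes for Nr3c1 had differences of 0.07 to 0.47 with overlapping groups. Where they lie against the deleted part of the gene is not known here, and they were made for the mouse gene, so they check neither the deletion nor the human transgene, whose RNA was not analysed here.

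To show genes of different roles with and without the interferon response element in front of them, 6 promoters from the RefSeq promoter table (build GRCm38.p6) are printed 5′ to 3′ on the strand of the gene, as the 250 bases before the transcription start. They are Ifit1 (chr19:34640639-34640888, plus strand), Isg15 (chr4:156200819-156201068, minus strand), Igtp (chr11:58199306-58199555, plus strand) and Cxcl10 (chr5:92348890-92349139, minus strand), which hold the element, and Irf7 (chr7:141266425-141266674, minus strand) and Slc25a25 (chr2:32451471-32451720, minus strand, 1 of the 3 promoters listed for this gene), which do not. Capitals mark every match to the core of the interferon response element, GAAA and GAAA parted by any 2 bases, on either strand.
Ifit1: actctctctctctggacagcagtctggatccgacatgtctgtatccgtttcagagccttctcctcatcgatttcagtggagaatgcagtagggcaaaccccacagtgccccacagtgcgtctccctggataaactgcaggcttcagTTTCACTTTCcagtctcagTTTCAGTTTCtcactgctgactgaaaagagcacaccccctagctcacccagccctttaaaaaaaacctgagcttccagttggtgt
Isg15: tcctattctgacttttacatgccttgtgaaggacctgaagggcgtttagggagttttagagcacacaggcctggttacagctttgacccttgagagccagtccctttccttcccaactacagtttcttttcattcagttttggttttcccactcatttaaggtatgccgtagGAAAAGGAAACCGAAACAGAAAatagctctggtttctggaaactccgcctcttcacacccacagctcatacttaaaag
Igtp: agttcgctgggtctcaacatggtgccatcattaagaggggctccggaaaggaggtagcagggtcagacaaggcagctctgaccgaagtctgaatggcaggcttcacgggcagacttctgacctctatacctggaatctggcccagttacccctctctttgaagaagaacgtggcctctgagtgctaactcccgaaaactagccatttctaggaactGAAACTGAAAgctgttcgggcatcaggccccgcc
Cxcl10: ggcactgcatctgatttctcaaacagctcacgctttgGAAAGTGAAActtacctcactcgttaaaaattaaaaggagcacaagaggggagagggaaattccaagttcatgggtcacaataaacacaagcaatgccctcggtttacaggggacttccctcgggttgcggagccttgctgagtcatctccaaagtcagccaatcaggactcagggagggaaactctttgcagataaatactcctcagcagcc
Irf7: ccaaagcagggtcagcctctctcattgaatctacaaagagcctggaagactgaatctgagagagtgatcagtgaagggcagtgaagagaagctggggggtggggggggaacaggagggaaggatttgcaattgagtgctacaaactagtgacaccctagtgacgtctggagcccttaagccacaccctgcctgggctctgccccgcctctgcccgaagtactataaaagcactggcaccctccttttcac
Slc25a25: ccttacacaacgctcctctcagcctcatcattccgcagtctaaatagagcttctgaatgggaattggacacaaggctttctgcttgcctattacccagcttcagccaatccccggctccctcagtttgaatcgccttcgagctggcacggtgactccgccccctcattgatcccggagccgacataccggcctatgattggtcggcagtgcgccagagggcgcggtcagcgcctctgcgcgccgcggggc
The matches begin 104 and 85 bases before the start of Ifit1, 78, 72 and 66 bases before that of Isg15, 34 bases before that of Igtp and 213 bases before that of Cxcl10. The 3 matches of Isg15 overlap each other, so its capitals form a single run.

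The response element was searched on both strands from 250 bases before to 50 after each start, and 1079 of 27025 genes in the table held it (3.99%). Among the genes compared here, it stood in 16 of the 41 interferon-induced effector genes with a promoter in the table (39%) and in 8 of 8 guanylate-binding and immunity-related GTPase genes, of which 1 (12.5%) held the longer form that has another G in front, against 26.8% of the effector genes and 1.33% of all genes. It stood in 4 of 13 nucleic acid sensor and adaptor genes (30.8%), in 3 of 14 chemokine genes (21.4%) and in 1 of 20 p53 target genes (5%), in 2 of 15 urea cycle and amino acid genes (13.3%), in 0 of 22 gluconeogenic genes and in 0 of 24 fatty acid oxidation genes. TTCNNNGAA, the palindrome that STAT dimers bind, stood in 9.55% of all genes, in 19.5% of the effector genes, in 22.7% of the glucocorticoid-induced genes and in 5 of the 8 GTPase genes. A palindrome of the glucocorticoid response element, AGAACA and TGTTC parted by any 3 bases, was found in 14 of 27025 genes (0.0518%) and in 1 of the 22 glucocorticoid-induced genes, and in none of the interferon, gluconeogenic or fatty acid oxidation genes looked up. A match is a run of letters and not a bound site. Many of the interferon genes described hold none in this window, among them Ifi44, Irf7, Oasl2, Cmpk2, Samd9l, Oasl1, Ifit2, Adar and Irf9.

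No probe passed the test of AAV-hGRB against AAV-GFP: of 25539 probes, 0 had a limma adjusted p under 0.05 (0%), and the lowest adjusted p was 0.278. At an unadjusted p under 0.05 there were 876 probes (3.43%), against 1277 that uniform p-values would give, and 496 of them were higher with hGRB. The balance tipped at smaller p. Under 0.01 there were 172 higher and 39 lower probes, and under 0.001 there were 33 higher and 3 lower, where uniform p-values would give 26 in all. Of those 33 higher probes, 25 belonged to 4 lists of interferon genes, some of them further probes of the same gene, such as Ifi44. Counted by gene, 13 of the 15 higher genes of lowest p with a symbol were in these lists. Their 102 genes are 0.563% of the genes tested. Over all genes the median difference was -0.081 and the median standard error (SE) was 0.30, and 38.5% of genes had a positive difference. The median SD within a group was 0.32 for AAV-hGRB, 0.50 for AAV-GFP and 0.38 for PBS.

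Genes were also counted by whether the groups overlapped. In 138 genes (0.762%) all 4 AAV-hGRB arrays were above all 4 AAV-GFP arrays, and in 412 (2.27%) all 4 were below. Higher genes thus made up 25.1% of those without overlap. That split depended on the scaling: it was 47.9% (192 higher, 209 lower) with the percentile taken over probes above background on every array and 35.6% (178 higher, 322 lower) with quantile scaling. Without AAV-GFP replicate 3 the counts were 553 (3.05%) and 1285 (7.09%). Large differences leaned the other way, with 213 genes more than 2-fold higher and 97 more than 2-fold lower. Of these, 53 higher and 19 lower genes had no overlap. Interferon genes of the 4 lists made up 24 of those 53, 34 of the 138 and 0 of the 412.

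**Figure D1:**
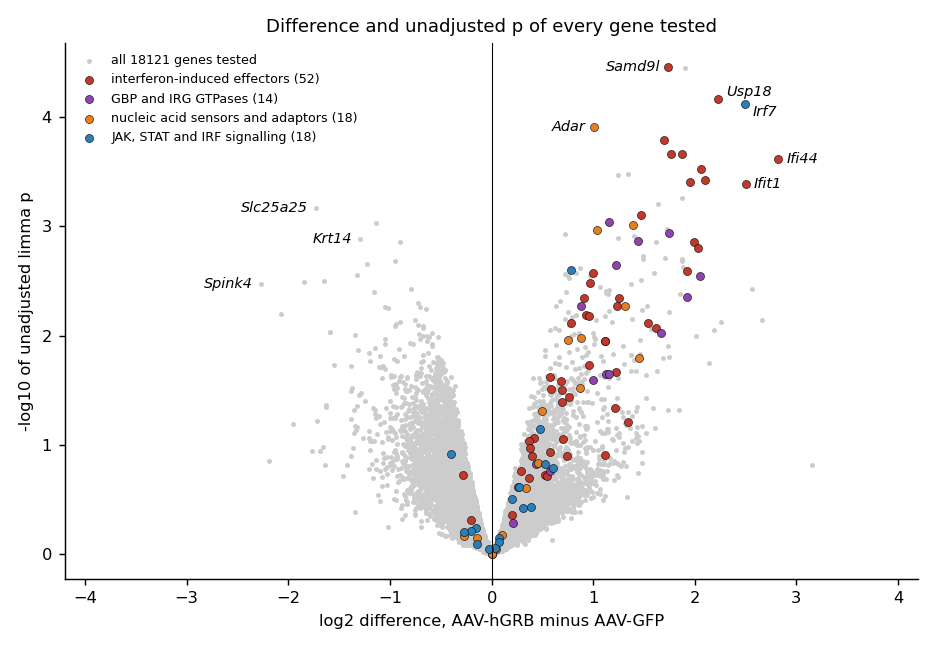
Log2 difference (AAV-hGRB minus AAV-GFP, horizontal axis) against -log10 of the unadjusted limma p (vertical axis) for each of the 18121 genes, with 4 interferon gene lists in colour. Most coloured points lie right of 0 and reach the top of the plot, and Slc25a25 is the highest labelled point on the left; no probe had an adjusted p under 0.05.

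The tested genes at the start of the interferon cascade showed no such shift, but several of the interferons themselves could not be tested. Of 16 interferon and receptor genes listed, 8 were tested, and their differences ran from -0.37 to 0.26 with a median of 0.03. The receptor subunits Ifnar1 and Ifnar2 for type I interferon and Ifngr1 and Ifngr2 for interferon gamma were measured on all 8 arrays, with groups that overlapped for each. Ifnb1, the first type I interferon made by most infected cells, was not above background often enough to be tested. The same held for the interferons Ifna2, Ifna4, Ifne and Ifnk and the receptor gene Ifnlr1. Ifna5 and Ifnl2 were not found on the array. Whether these genes differed is not known here. The list mean was 0.08, 0.38, 0.28 and 0.43 on the AAV-hGRB arrays and 0.22, 0.17, 0.60 and 0.28 on the AAV-GFP arrays, which overlap.

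Among the sensors of foreign nucleic acid, 16 of 18 tested genes had a positive difference, with a median of 0.48, and 5 had no overlap between the groups (27.8%, against 0.762% of all genes). Adar, which edits adenosine to inosine in double-stranded RNA, stood at 0.82, 1.37, 1.33 and 0.76 with hGRB and at 0.04, 0.17, 0.01 and 0.02 with GFP. All 4 AAV-hGRB arrays were above every AAV-GFP array, and the PBS arrays lay at 0.11 to 0.19, within the range of the GFP arrays or just above it. The difference for Adar was 1.01 (SE 0.18, limma adjusted p = 0.351). Its second probe, which was dimmer, had a difference of 0.56 with overlap. Ddx58, which encodes the RNA sensor RIG-I, stood at 1.94, 2.78, 1.93 and 1.5 with hGRB and at 0.81, 0.03, 1.18 and 0.56 with GFP, again without overlap, a difference of 1.39 (SE 0.32). Of its 4 probes, 2 overlapped, with differences of 0.87 and 0.99. Ifih1, which encodes the long-RNA sensor MDA5, and Eif2ak2, which encodes the RNA-activated kinase PKR, had differences of 0.88 and 1.04, also without overlap. For Eif2ak2 the lowest GFP level, -1.92, was on AAV-GFP replicate 3, and the difference without that array was 0.81.

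Tlr3, a receptor for double-stranded RNA in endosomes, had no overlap, but its difference of 0.87 became 0.52 without AAV-GFP replicate 3. Dhx58, a regulator of the RIG-I family, and Zbp1, a sensor of Z-form nucleic acid, had differences of 1.31 and 1.45 and overlapped only with AAV-GFP replicate 3, which stood at 2.19 and 4.13. Without that array they were 1.61 and 1.96. The adaptors that carry the signal were nearer to the middle of all genes. Mavs and Myd88, adaptors of the RIG-I family and of Toll-like receptors, had overlapping groups and differences that rounded to 0.00.

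The factors that read the signal divided in the same way. Of 18 JAK, STAT and IRF genes, 12 had a positive difference, and the median was 0.14. Without overlap were 2 (11.1%, against 0.762% of all genes), Irf7 and Irf9. Irf7, a transcription factor that amplifies type I interferon production and is itself induced by interferon, stood at 1.32, 3.01, 3.73 and 1.91 with hGRB and at -0.27, 0.44, -0.08 and -0.08 with GFP. Every AAV-hGRB array was above every AAV-GFP and every PBS array, the last at -0.30 to 0.27. The difference was 2.49 (SE 0.43, 5.62-fold, limma adjusted p = 0.278). It was 0.87 within slide 5 and 3.81 within slide 6, each slide holding 1 array of either group. Irf9, the DNA-binding partner of STAT proteins, stood at 2.71, 2.98, 2.70 and 2.34 with hGRB and at 1.54, 1.86, 2.28 and 1.94 with GFP, a difference of 0.78 (SE 0.20) in which the lowest hGRB array was just above the highest GFP array.

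Stat2, which carries the signal of type I interferon to the nucleus, overlapped: its difference was 0.60 (SE 0.41), with AAV-GFP replicate 3 at 4.09 and the other GFP arrays at 2.28 to 2.57. Without that array it was 1.03. The kinases Jak1, Jak2 and Tyk2 had overlapping groups.

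The longest of the interferon lists is that of the effector genes, whose products act on the virus or the infected cell. Of 63 genes listed, 52 were tested, 50 had a positive difference and 21 (40.4%) had no overlap with hGRB higher, against 0.762% of all genes. None had no overlap with hGRB lower. The median was 0.97 (quartiles 0.57 and 1.64), against -0.081 for all genes. An unadjusted limma p under 0.05 was found for 35 of the 52, all higher, against 496 higher probes of 25539. On the single arrays the list mean was 1.48, 2.41, 2.31 and 1.47 with hGRB, 0.58, 0.78, 1.14 and 0.82 with GFP and 0.39, 0.90, 0.75 and 0.92 with PBS. AAV-hGRB replicates 2 and 3 stood highest, replicates 1 and 4 lay between them and the controls, and no AAV-hGRB array overlapped either control group.

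The same order held gene by gene. Of the 52 effector genes, 28, 42, 42 and 27 were above every AAV-GFP array on AAV-hGRB replicates 1 to 4. Over all 18121 genes the counts were 1728, 1311, 1737 and 1699. On both slides that held an array of either group, 36 of the 52 (69.2%) were higher with hGRB, against 8.09% of all genes. The 2 slides gave medians of 0.70 (slide 5) and 1.18 (slide 6). With AAV-GFP replicate 3 left out, the median was 1.08 and 35 of 52 genes had no overlap (67.3%, against 3.05% of all genes). In 33 of the 52 all 4 PBS arrays were below the lowest AAV-hGRB array, against 326 of all 18121 genes. The PBS mean was nearer to the GFP mean than to the hGRB mean for 49, against 54.9% of all genes.

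**Figure D2:**
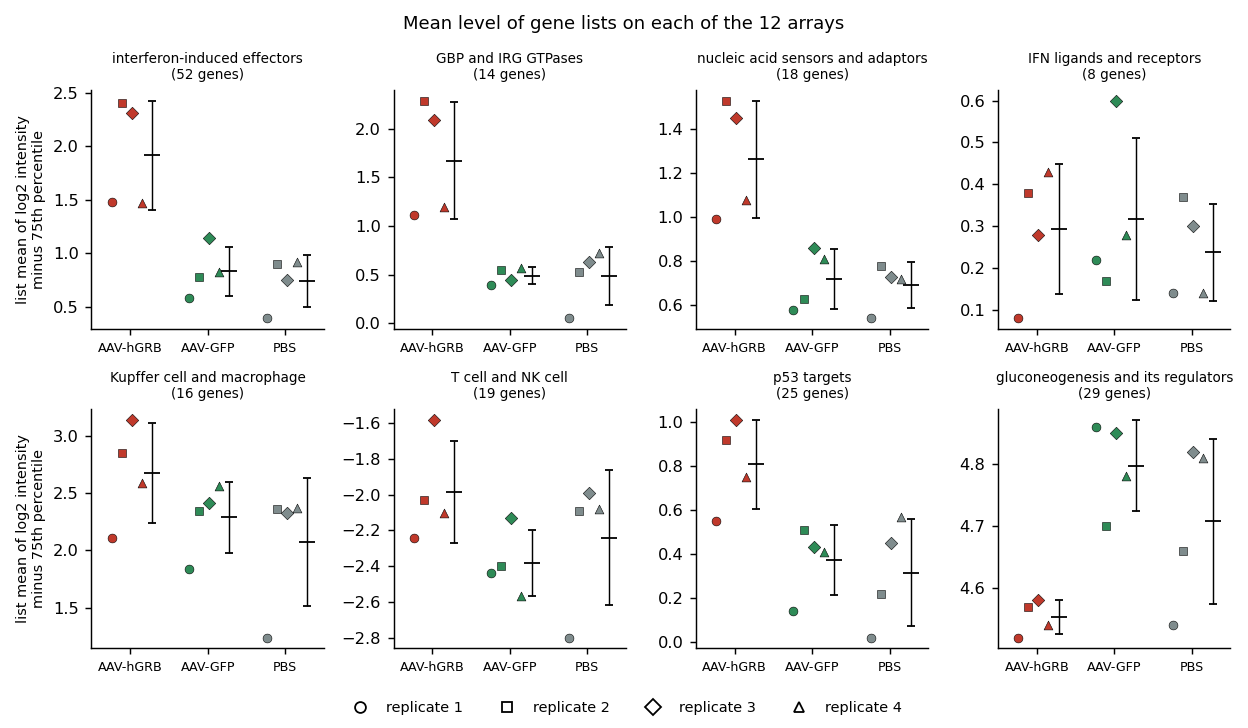
Mean level of 8 gene lists on each array (log2 intensity minus the 75th percentile of the array), with AAV-hGRB in red, AAV-GFP in green and PBS in grey, a symbol per replicate, and the group mean ± SD as a bar. The effector list lies at 1.47 to 2.41 with hGRB and at 0.58 to 1.14 with GFP, while the list of interferons and receptors overlaps between the groups.

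Ifi44, an interferon-induced gene of little-known function, had the largest difference among the genes with a symbol that did not overlap. It stood at 1.13, 3.38, 3.03 and 0.82 with hGRB, at -1.49, -0.48, -0.24 and -0.71 with GFP and at -1.59 to -0.19 with PBS. Its difference of 2.82 (SE 0.55, 7.07-fold) had a limma adjusted p of 0.46, and its second probe gave 3.46. Ifit1, whose product binds viral RNA that lacks the host cap mark and whose promoter is printed above, stood at 1.67, 4.01, 3.09 and 1.41 with hGRB and at -0.24, 0.16, 0.61 and -0.35 with GFP, a difference of 2.5 (SE 0.52). All of its AAV-hGRB arrays exceeded all GFP and PBS arrays. The related Ifit2 and Ifit3 had differences of 1.47 and 1.99, both without overlap on their brightest probe.

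Isg15, a small ubiquitin-like protein that is coupled to other proteins, stood at 3.54, 5.42, 4.81 and 3.58 with hGRB and at 1.70, 2.42, 2.77 and 2.26 with GFP. The difference was 2.06 (SE 0.41, 4.16-fold). Usp18, the protease that removes Isg15 and also damps signalling at the type I interferon receptor, stood at 1.85, 3.67, 3.50 and 2.52 with hGRB and at 0.80, 1.03, 0.00 and 0.80 with GFP. Its difference was 2.23 (SE 0.38, limma adjusted p = 0.278). Neither gene overlapped between the groups, and for both the PBS arrays lay below all AAV-hGRB arrays.

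The family that makes or resembles makers of 2′-5′ oligoadenylate, the messenger that activates an RNA-cutting enzyme, included Oas1a (difference 1.92, SE 0.51), Oasl1 (1.70, SE 0.32) and Oasl2 (2.10, SE 0.43). None of these 3 overlapped between the groups. Oasl2 stood at 0.55, 2.18, 2.27 and 0.56 with hGRB and at -1.34, -0.80, 0.13 and -0.85 with GFP. Rsad2, which encodes viperin, an enzyme that makes a chain-terminating nucleotide, had a difference of 2.03 (SE 0.50), and its neighbour Cmpk2, a nucleotide kinase, one of 1.95 (SE 0.40). Rsad2 was close to the GFP arrays on AAV-hGRB replicate 1, at 0.40 against a highest GFP level of 0.10, and 1 PBS array reached 1.63, above 2 of the AAV-hGRB arrays.

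**Figure D3:**
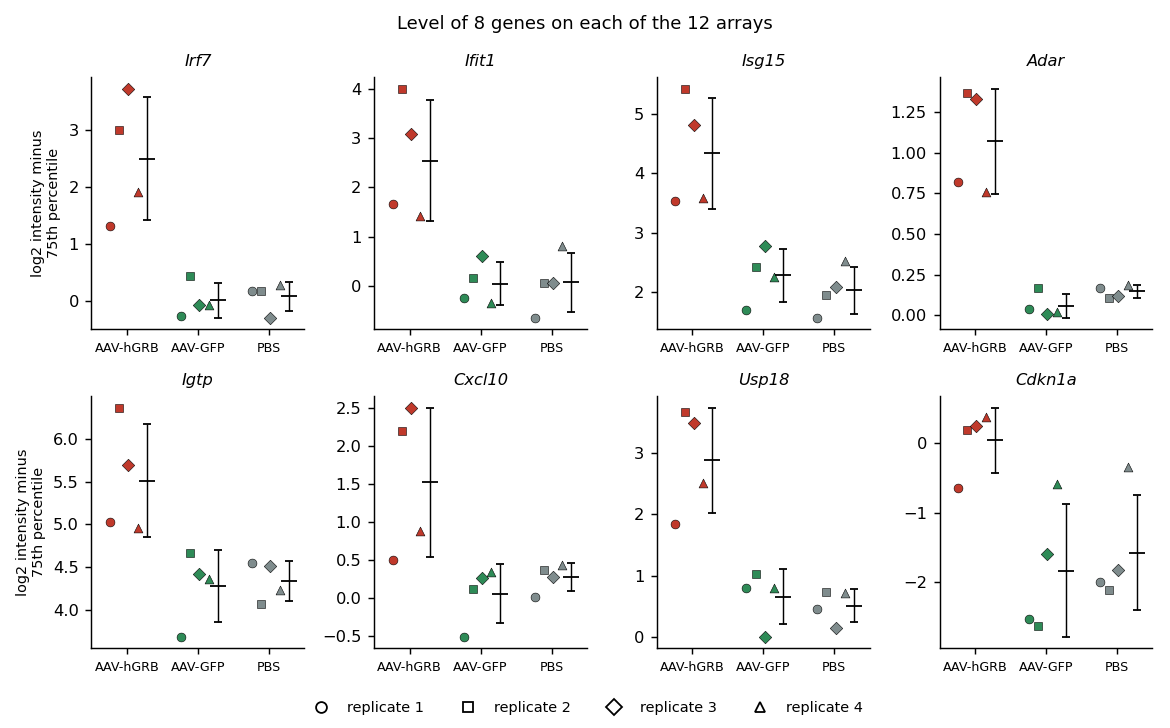
Level of 8 genes on each of the 12 arrays (log2 intensity minus the 75th percentile of the array), a symbol per replicate, with the group mean ± SD as a bar. Irf7, Ifit1, Isg15, Adar, Igtp, Cxcl10 and Usp18 have all 4 AAV-hGRB arrays above all 4 AAV-GFP arrays, while Cdkn1a overlaps.

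Samd9l, a restriction factor that slows viral and cell translation, had the lowest p of the genes with a symbol: it stood at -2.19, -1.18, -1.52 and -2.45 with hGRB and at -3.86, -3.59, -3.27 and -3.57 with GFP. The difference was 1.74 (SE 0.27, limma adjusted p = 0.278), and 1 of its GFP arrays was not well above background. The probe with the next lowest p carries the name Fbxo39 (difference 1.90, SE 0.30). It stood at 1.12, 2.5, 2.00 and 1.24 with hGRB and at -0.31, -0.46, 0.05 and -0.03 with GFP. Fbox39 is listed as a synonym of Xaf1, an interferon-induced gene also on chromosome 11, and 0 probes carry the name Xaf1, so which gene this probe reads was not settled. Trim30a and Rtp4, both known as interferon-induced, had differences of 1.87 and 1.77 without overlap. Of the Mx GTPases, which block viral ribonucleoproteins, Mx1 had no overlap and a difference of 1.62, but was well above background on 4 AAV-hGRB arrays and on 1 GFP array. Mx2 (1.22) overlapped through AAV-GFP replicate 3 at 2.49, and differed by 1.70 without it. Bst2, which tethers budding virus, and Ifitm3, which hinders viral entry, differed by 0.69 with overlap and by 0.42 without. Ifitm1 and Plscr1 were the 2 effector genes with a negative difference, and both overlapped.

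The large GTPases that interferon gamma induces and that attack the vacuoles of intracellular parasites leaned 1 way. All 14 tested had a positive difference, with a median of 1.16. Without overlap were 6 of them (42.9%, against 0.762% of all genes). An unadjusted limma p under 0.05 was found for 11, all higher, against 496 higher probes of 25539. The list mean was 1.11, 2.29, 2.09 and 1.20 with hGRB, 0.39, 0.55, 0.44 and 0.57 with GFP and 0.05 to 0.72 with PBS. Again replicates 2 and 3 of AAV-hGRB were highest, and the groups did not overlap. Igtp stood at 5.03, 6.36, 5.69 and 4.96 with hGRB and at 3.69, 4.67, 4.42 and 4.36 with GFP, a difference of 1.22 (SE 0.32). Irgm1, a regulator of these GTPases, had a difference of 1.16 (SE 0.27), Gvin1, a very large member, 1.75 (SE 0.42), Gbp7 1.44 (SE 0.35) and Gbp6 1.67 (SE 0.54), each without overlap. Gbp3 had the largest difference of the list, 2.05, with a single overlap between AAV-GFP replicate 3 at 1.95 and AAV-hGRB replicate 4 at 1.73. Gbp genes are closely related copies, so a probe for one may also read another.

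Antigen presentation lay nearer to all genes. Of 19 genes for major histocompatibility complex (MHC) class I and the immunoproteasome, 15 had a positive difference, the median was 0.24 and none lacked overlap. Tap1, a subunit of the peptide pump of the endoplasmic reticulum, had the largest, 1.19, with AAV-GFP replicate 3 low at -2.59; without that array it was 0.80. Psmb8, an immunoproteasome subunit, differed by 0.60. The MHC class II list had a median of 0.13, which was -0.08 without AAV-GFP replicate 3. Among 21 chemokine genes the median was 0.32, but it was -0.04 when AAV-GFP replicate 1 was left out, -0.02 when AAV-hGRB replicate 3 was, and 0.76 with AAV-GFP replicate 3 removed. Of these genes 2 had no overlap (9.52%, against 0.762% of all genes), Cxcl10 and Cxcl9, both ligands of the receptor CXCR3 on activated T cells. Cxcl10 stood at 0.50, 2.20, 2.5 and 0.88 with hGRB, at -0.51, 0.12, 0.27 and 0.34 with GFP and at 0.01 to 0.43 with PBS, a difference of 1.47 (SE 0.40). Cxcl9 differed by 1.24 (SE 0.48). Ccl3, Ccl4 and Ccl5, which draw T cells, natural killer cells and monocytes, differed by 1.74, 1.63 and 1.15, and by 2.26, 2.14 and 1.41 without AAV-GFP replicate 3. Ccl3 and Ccl5 overlapped through that array alone and Ccl4 through AAV-GFP replicate 4 as well, and with normexp background correction the difference of Ccl3 was 0.55.

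Of 20 NF-kappaB factors and targets, which mark inflammation through tumour necrosis factor and Toll-like receptors, 0 lacked overlap. None had an unadjusted limma p under 0.05, against 3.43% of all probes. Their median was 0.15. Acute phase proteins, which hepatocytes make under interleukin 6, had a median of 0.03 over 28 genes, 14 higher and 14 lower.

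The marker lists of macrophages and of T and natural killer cells had medians above 0, and that of B cells had a median of -0.05. The 16 Kupffer cell and macrophage markers were all higher on average, with a median of 0.36, but none lacked overlap, and their median was -0.31 within slide 5 and 0.75 within slide 6. Their list mean was 2.11, 2.85, 3.14 and 2.59 with hGRB and 1.84, 2.34, 2.41 and 2.56 with GFP. Mpeg1, a pore-forming protein of macrophages, differed by 0.87 with AAV-hGRB replicate 1 among the GFP arrays. Of 19 T cell and natural killer cell markers 14 were higher, with a median of 0.40 and 2 without overlap (10.5%, against 0.762% of all genes). Cd8a, a chain of the coreceptor of cytotoxic T cells, stood at -4.35, -4.17, -3.21 and -4.10 with hGRB and at -4.94, -5.61, -4.42 and -5.48 with GFP, a difference of 1.16 (SE 0.33). Cd3g, part of the T cell receptor complex, differed by 0.53 (SE 0.24) and the granule protease Gzma by 1.52, the latter with overlap. The T cell list mean was -2.24, -2.03, -1.58 and -2.10 with hGRB and -2.44, -2.40, -2.13 and -2.57 with GFP, and AAV-hGRB replicate 3 was highest. In whole liver, more cells of a type and more RNA per cell cannot be told apart, and the part of these cells in the interferon genes was not tested.

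Other cell types gave a mixed picture. Cd22, an inhibitory receptor of B cells, had no overlap (difference 0.87, SE 0.23), while the 10 B cell and plasma cell markers had a median of -0.05. Lyve1 and Kdr, of sinusoidal endothelium, had no overlap and differed by 0.72 and 0.53, while the 12 endothelial markers had a median of 0.02, with AAV-hGRB replicate 1 at 1.20 and the other AAV-hGRB arrays at 0.85 to 0.86. The 9 neutrophil markers had a median of 0.37, which was 0.77 without AAV-GFP replicate 3, and the PBS arrays, at -2.07 to -1.72, lay mostly above the AAV-hGRB arrays at -2.52 to -2.02.

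Targets of p53, the factor that stops the cell cycle after DNA damage, leaned to higher values. Of 25 tested, 20 had a positive difference, the median was 0.33 and 1 had no overlap (4%, against 0.762% of all genes). The median was 0.01 within slide 5 and 0.49 within slide 6. Cdkn1a, the cell cycle inhibitor p21, stood at -0.65, 0.19, 0.24 and 0.38 with hGRB and at -2.53, -2.63, -1.59 and -0.59 with GFP, a difference of 1.88 (SE 0.49). AAV-GFP replicate 4 overlapped with AAV-hGRB replicate 1 by a small margin. Phlda3, an inhibitor of the kinase AKT, stood at 1.15, 2.19, 2.70 and 1.89 with hGRB and at -0.35, 0.82, 1.17 and 0.34 with GFP, a difference of 1.49 (SE 0.38) with a like small overlap. Mdm2, which degrades p53, differed by 0.83 and Eda2r, a receptor of the tumour necrosis factor family, by 2.26, both with overlap. Ddit4l, the gene without overlap, differed by 0.76 (SE 0.24). The list mean was 0.55 to 1.01 with hGRB, 0.14 to 0.51 with GFP and 0.02 to 0.57 with PBS.

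**Figure D4:**
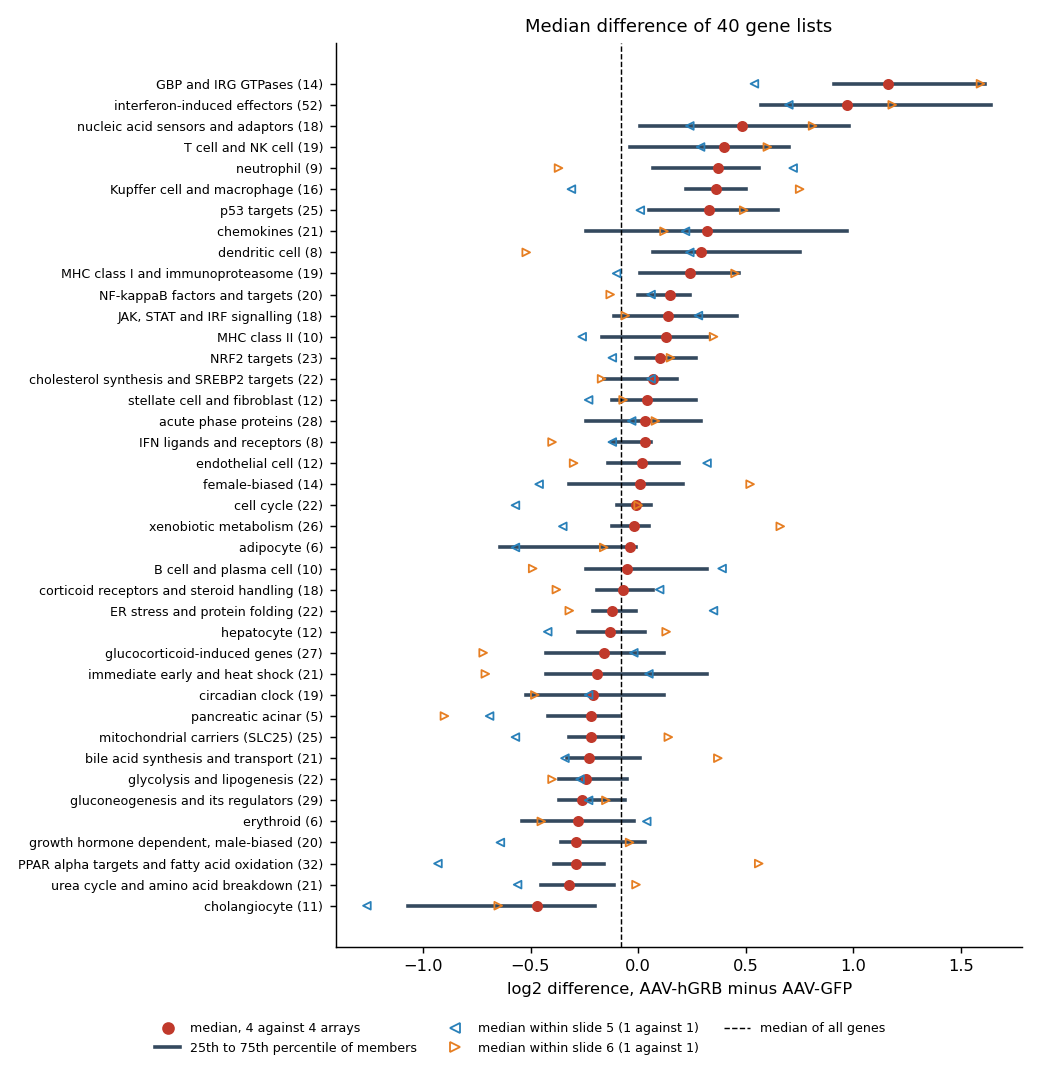
Median difference (AAV-hGRB minus AAV-GFP, log2) of 40 gene lists, with the number of genes tested in brackets, a bar from the lower to the upper quartile of the members, the medians within slides 5 and 6 (1 array against 1) as open triangles and the median of all genes, -0.081, as a dashed line. The GTPase and effector lists are farthest to the right, at 1.16 and 0.97, and the cholangiocyte list is farthest to the left, at -0.47.

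Several metabolic lists had medians below 0, and so had all genes, at -0.081. Only 38.5% of all genes had a positive difference, so lower genes were the majority over all genes too. The lowest p among the genes that were lower was that of Slc25a25, a calcium-regulated carrier of ATP and magnesium across the inner mitochondrial membrane. It stood at 3.20, 4.71, 2.72 and 3.13 with hGRB and at 5.71, 4.75, 5.33 and 4.89 with GFP. The difference was -1.73 (SE 0.38, 3.32-fold lower, limma adjusted p = 0.601), and AAV-hGRB replicate 2 was just below the lowest GFP array. All 3 probes were lower, at -1.73, -1.58 and -1.31, each without overlap. The PBS arrays lay at 3.52 to 4.23, below every GFP array and within the range of the hGRB arrays. Of 25 mitochondrial carriers of this family 20 were lower, with a median of -0.22, and 3 lacked overlap (12%, against 2.27% of all genes). Besides Slc25a25 these were Slc25a10, the dicarboxylate carrier, at -0.67 and Slc25a51, the carrier of NAD, at -0.62. The list median was -0.57 within slide 5 and 0.14 within slide 6.

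Among 29 gluconeogenic enzymes and regulators 22 were lower, the median was -0.26 and 3 had no overlap (10.3%, against 2.27% of all genes). The list mean was 4.52, 4.57, 4.58 and 4.54 with hGRB, 4.86, 4.70, 4.85 and 4.78 with GFP and 4.54 to 4.82 with PBS. All 4 AAV-hGRB arrays were below all GFP arrays, and the PBS arrays spanned both. Tat, tyrosine aminotransferase and a textbook glucocorticoid target, stood at 7.25, 6.93, 6.26 and 6.65 with hGRB and at 7.38, 7.30, 7.59 and 7.81 with GFP, a difference of -0.75 (SE 0.23, limma adjusted p = 0.998). Creb3l3, a liver transcription factor of fasting, was lower without overlap at -0.38. G6pc, the enzyme that releases glucose, stood at 4.08, 6.15, 4.02 and 4.79 with hGRB and at 6.54, 5.27, 6.04 and 6.69 with GFP, a difference of -1.38 (SE 0.57) with overlap through AAV-hGRB replicate 2. Pck1, the enzyme of the committed step, differed by -0.62 (SE 0.27), with AAV-GFP replicate 3 highest at 9.06, and by -0.39 without that array. The PBS mean of G6pc was 4.84, against 4.76 with hGRB and 6.14 with GFP. For Pck1 it was 7.66, against 7.76 and 8.37, and for Tat 7.23, against 6.77 and 7.52. Over the list the PBS mean was nearer to GFP for 18 of 29 genes and nearer to hGRB for 11.

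The 27 glucocorticoid-induced genes had a median of -0.16, against -0.081 for all genes. With 11 higher and 16 lower, their split was near that of all genes, of which 38.5% were higher. Of these, 0 were higher and 3 lower without overlap (11.1%, against 2.27% of all genes), namely Angptl4, Tat and Sgk1. The list shares Cdkn1a, Tat, G6pc and Pck1 with the lists above. An unadjusted limma p under 0.05 was found for 1 higher and 4 lower members, against 496 higher and 380 lower of all 25539 probes. Fkbp5 and Tsc22d3, which respond to GR in most tissues, differed by 0.08 (SE 0.62) and -0.14 (SE 0.33), and both changed sign when single arrays were left out. Per1, a clock gene with GR sites, differed by -0.33 (SE 0.55). The 18 genes for corticoid receptors, their chaperones and steroid handling had a median of -0.07, with 0 lacking overlap.

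Fatty acid oxidation and other targets of the lipid sensor PPAR alpha were lower in 28 of 32 genes, with a median of -0.29. Without overlap were 3 of them (9.38%, against 2.27% of all genes). The lean to lower values depended on single GFP arrays. Without AAV-GFP replicate 2 the list median was -0.10, as was that of all genes, and AAV-GFP replicate 3 moved it the other way. The list mean was 4.40, 4.33, 4.36 and 4.59 with hGRB and 4.82, 5.10, 4.04 and 4.87 with GFP, so only replicate 3 of the GFP arrays was below the hGRB range. Without it the median was -0.50 and 16 of the 32 genes lacked overlap (50%, against 7.09% of all genes). Within slide 5 the median was -0.93, and within slide 6, which holds that array, it was 0.56. PBS arrays had list means of 4.38 to 5.13, which spanned both groups. Angptl4, an inhibitor of lipoprotein lipase that fasting and glucocorticoids induce, stood at 6.17, 6.81, 5.74 and 6.20 with hGRB and at 6.99, 7.09, 7.41 and 7.53 with GFP, a difference of -1.02 (SE 0.30) without overlap. Its PBS arrays, at 5.59 to 6.91, were below the GFP arrays. Acaa1b, a thiolase of peroxisomal oxidation, stood at 7.78, 7.68, 7.54 and 7.45 with hGRB and at 8.26, 8.22, 8.26 and 8.17 with GFP, a difference of -0.62 (SE 0.20), and here 3 of 4 PBS arrays stood with the GFP arrays.

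**Figure D5:**
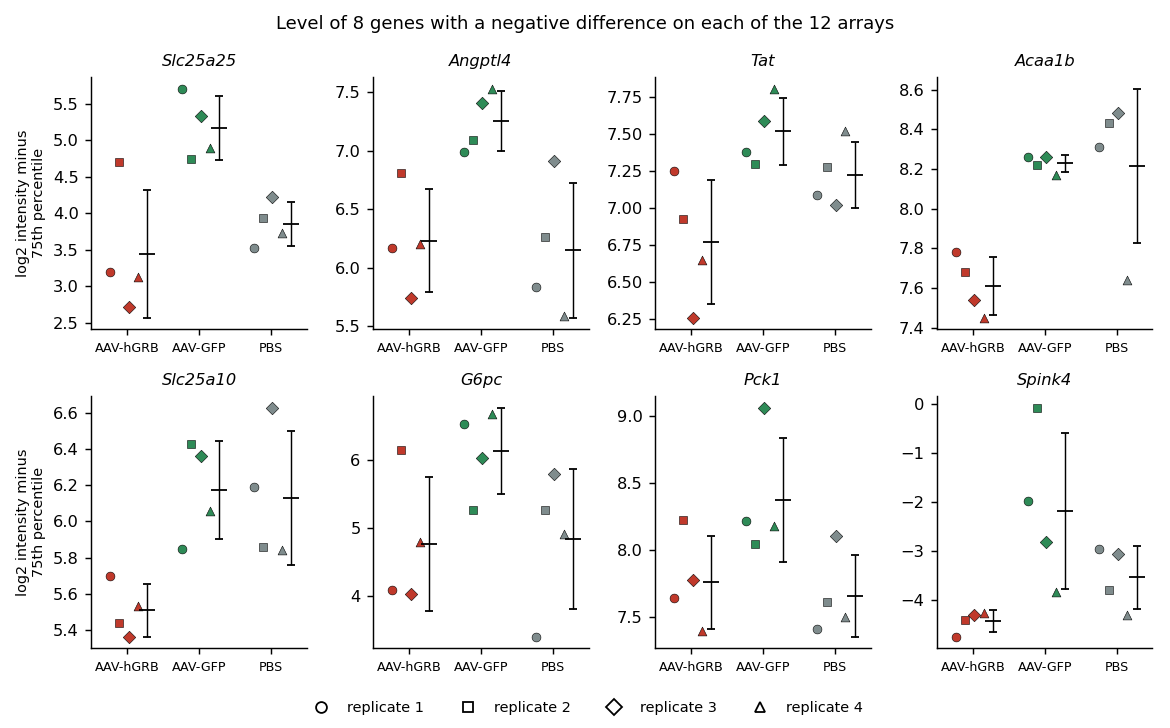
Level of 8 genes with a negative difference on each of the 12 arrays (log2 intensity minus the 75th percentile of the array), a symbol per replicate, with the group mean ± SD as a bar. Slc25a25, Angptl4, Tat, Acaa1b, Slc25a10 and Spink4 have all 4 AAV-hGRB arrays below all 4 AAV-GFP arrays, while G6pc and Pck1 overlap.

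Of 21 genes for the urea cycle and amino acid breakdown, 17 were lower, with a median of -0.32 and 4 without overlap (19%, against 2.27% of all genes). They include Prodh, which starts proline breakdown, at -0.70 (SE 0.27), Glul, glutamine synthetase, at -0.58 (SE 0.23), and Aass, which starts lysine breakdown, at -0.50 (SE 0.21). For Prodh the GFP levels were 5.41, 5.59, 6.39 and 5.39 and the hGRB levels 4.91, 5.23, 5.03 and 4.83. Without AAV-GFP replicate 3, the highest of these, the difference was -0.47. The glycolysis and lipogenesis list leaned the same way (19 of 22 lower, median -0.24). The male-biased genes that depend on growth hormone had a median of -0.29. Of these 20 genes 6 were higher and 14 lower, not far from all genes, of which 38.5% were higher. These lists had 0 and 2 genes without overlap (0% and 10%, against 2.27% of all genes). Within slides 5 and 6 the medians were -0.56 and -0.01 for the urea cycle list and -0.64 and -0.04 for the male-biased genes. They were -0.27 and -0.40 for glycolysis and lipogenesis, and -0.034 and -0.389 for all genes. The PBS mean was nearer to hGRB than to GFP for 17 of the 20 male-biased genes. That held for 11 of the 22 glycolysis and lipogenesis genes and 7 of the 21 urea cycle genes. Cholesterol synthesis genes had a median of 0.07 over 22 genes, and bile acid genes one of -0.23 over 21, both with 0 lacking overlap.

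Bile duct markers had the lowest median of the 40 lists, -0.47 over 11 genes. Without overlap were 2 of them (18.2%, against 2.27% of all genes), Krt14 and Muc1. Krt14 is a keratin of basal epithelia and not a usual bile duct marker. It was put in a list chosen with earlier results known, so this share only describes the list. Krt14 stood at -2.73, -3.39, -3.42 and -2.95 with hGRB and at -2.27, -1.81, -1.26 and -2.0 with GFP, a difference of -1.29 (SE 0.31). AAV-GFP replicate 2 carried much of the list: its mean was -0.54, against -1.46, -1.04 and -1.21 on the other GFP arrays and -1.74 to -1.51 with hGRB. There Krt19, the usual bile duct keratin, stood at 2.79, while the other 7 arrays lay at -1.61 to -0.04, and the difference of -1.20 came with overlap. Spink4, a secreted protease inhibitor of mucous epithelia, had the largest negative difference among genes with a symbol that did not overlap, -2.27 (SE 0.62), and it too was highest on that array, at -0.07 against -3.85 to -1.98 on the other GFP arrays.

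Genes of the remaining lists and outside all lists also differed without overlap. Gsta1 and Gsta2, glutathione transferases that detoxify lipid aldehydes, were higher with differences of 1.48 and 1.53. As near-identical copies they may share signal, and AAV-GFP replicate 3 was lowest for both; without it the differences were 0.99 and 1.09. They belong to the 23 targets of the stress factor NRF2, which had a median of 0.10. Tmem171, a membrane protein of little-known function, stood at -2.47, -1.67, -2.23 and -2.06 with hGRB and at -3.27, -3.57, -3.13 and -3.41 with GFP. The difference was 1.24 (SE 0.25). Its PBS arrays ran from -3.51, within the GFP range, to -2.48, just below the lowest hGRB array. On the lower side, Nr4a1, an orphan nuclear receptor induced within minutes by hormones, stood at 0.01, 0.72, 1.11 and 0.21 with hGRB and at 3.53, 1.14, 2.24 and 1.5 with GFP, a difference of -1.59 (SE 0.51). The 21 immediate early and heat shock genes, to which it belongs, had a median of -0.19. Noct, a clock-controlled phosphatase, differed by -1.25 (SE 0.54), and the kinase Wnk4 by -0.90 (SE 0.22). The PBS means of Nr4a1, Noct and Wnk4 were 0.78, -0.12 and -1.62. Their hGRB means were 0.51, -0.24 and -1.96, and their GFP means 2.10, 1.01 and -1.06.

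Bglap and Bglap3, copies of the bone protein osteocalcin that may share signal, differed by -1.85 and -1.23 without overlap. Bglap was highest on AAV-GFP replicate 2, at -1.90, against -3.77 to -3.26 on the other GFP arrays. Car14, a carbonic anhydrase, differed by -1.14 and overlapped through AAV-hGRB replicate 1 at 3.71. Without overlap were also Tmem54 (-1.38), the secreted factor Fam3b (-1.32), the serotonin receptor Htr6 (-1.21), Dipk1b (-1.05), the steroid reductase Akr1c21 (-0.95), Popdc2 (-0.79), the histone gene H2ac18 (-0.72), the aldehyde dehydrogenase Aldh9a1 (-0.70) and Tst (-0.65), a mitochondrial sulfurtransferase. Tmem54 was highest on AAV-GFP replicate 2, at -0.21, against -3.42 to -2.37 on the other GFP arrays. Its highest hGRB array, at -3.43, was just below the lowest GFP array. Without AAV-GFP replicate 2 its difference was -0.7. The 2 probes of Aldh9a1 disagreed in sign, at -0.70 and 0.31. Bglap was well above background on 1 hGRB and 3 GFP arrays, Fam3b on 1 and 4, Htr6 on 2 and 2, and Dipk1b on 2 and 3. None of these genes had a limma adjusted p under 0.05.

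Detection was compared last. Of 18121 genes, 13 had a probe well above background on 4 of 4 AAV-hGRB and on 0 of 4 AAV-GFP arrays. In 0 genes it was the reverse. The mean share of probes well above background on an array was 62.9% with hGRB and 60% with GFP. Since these 13 genes passed the filter through the AAV-hGRB arrays alone, their folds and p-values only describe them. Of the 7 with a gene symbol, the glutamate receptor subunit Gria3 was 3.59-fold higher with hGRB (limma adjusted p = 0.83). The muscle acetylcholine receptor subunit Chrna1 was 2.58-fold higher (limma adjusted p = 0.998), and its difference fell from 1.37 to 0.88 without AAV-hGRB replicate 4. These folds set the mean of the hGRB arrays against the dimmest signal called above background on each GFP array, or the probe's own signal where that was higher. For all but Gria3 and Rab8b they equal the measured difference, so they are not lower limits. The other 5 were Cib3, Cd180, Rab8b, Fcrla and Ptch1, at 1.32-fold to 2.01-fold. The measured levels of Cib3, Cd180, Fcrla and Ptch1 overlapped between the groups, and for Cd180 AAV-GFP replicate 3, at -3.23, was above every AAV-hGRB array.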

How the data were processed

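Liver RNA of 12 samples was measured on 1-colour Agilent arrays, 4 per group. The deposited intensity values are the scanner's processed signals, which Agilent Feature Extraction background-subtracted and detrended, per the file headers. The authors' deposited series table holds the same intensity values, equal within 1e-06 for 540216 of 540216. The log2 values were computed here from the deposited intensities: log2 of each non-control spot, averaged per probe, minus the 75th percentile of the array. Probes were kept where 4 or more of the 8 compared arrays had signal well above background. limma 3.58.1 was fitted to all 12 arrays with 3 groups, and p-values (two-sided) were adjusted by Benjamini-Hochberg over all 25539 probes, threshold 0.05. The fit was tested on simulated data. A gene is represented by its probe of highest mean level. Of 41174 probes, 22951 were named through RefSeq by systematic name, 124 through other accessions, and 18099 by the design alone. The genes named were taken from the 15 of lowest p and the 10 of largest difference without overlap in each direction, up to 6 of each list (any member of the interferon receptor, sensor, signalling and corticoid lists), up to 10 detected in 1 group only, and Nr3c1, Stat2, Irf7, Irf9, Pck1, G6pc, Tat, Fkbp5, Tsc22d3 and Per1. Others were named after their values were seen. The members and gene lists were chosen with earlier results of these data known. The number of arrays limits the precision. Alternatives in background correction, scaling, filter, slide and samples were run. Some results are not reported here.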

Additional observations from a re-analysis of the deposited data

Results flagged for a closer look

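Within each group of 4 arrays, the highest or lowest array was compared with the rest for 105 genes and 40 list means, 290 groups in all. In 25 of them 1 array stood farther off than Dixon's critical value allows. Chance gives about 1 in 20 groups, and groups that share genes are not independent.

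AAV-GFP replicate 3 was the distant array in 11 of the 25. It was high for Pck1 at 9.06 (other GFP arrays 8.04 to 8.21), Stat2 at 4.09 (2.28 to 2.57), Mx2 at 2.49 (0.47 to 0.66), Ccl5 at 2.04 (0.95 to 1.02), Fam3b at -2.88 (-3.75 to -3.71) and Popdc2 at -3.06 (-3.58 to -3.50). It was low for Tlr3 at -5.04 (-3.72 to -3.57), Eif2ak2 at -1.92 (-1.01 to -0.96) and Tap1 at -2.59 (-1.05 to -0.98). Its list mean was high for immediate early and heat shock genes, at 2.25 (1.38 to 1.44), and low for hepatocyte genes, at 7.10 (7.79 to 7.82).

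On the other GFP arrays, replicate 1 was low for the histone gene H2ac18 at 2.57 (2.97 to 3.02). Replicate 2 was high for Rsad2 at 0.10 (-0.41 to -0.40) and low for Gbp5 at -3.34 (-2.64 to -2.54). The MHC class II mean was high on replicate 4, at 0.40 (0.11 to 0.15).

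Among the AAV-hGRB arrays, replicate 1 was high for Car14 at 3.71 (2.76 to 2.78) and in the endothelial mean at 1.20 (0.85 to 0.86), and low in the mean of mitochondrial carriers at 2.43 (2.61 to 2.64). Replicate 2 was high for Gsta2 at 4.91 (4.32 to 4.33), Krt23 at 0.42 (-0.63 to -0.56) and the NRF2 target mean at 4.50 (4.38 to 4.40), and low in the xenobiotic metabolism mean at 4.72 (4.90 to 4.92). Replicate 3 was high for the lymphocyte genes Cd3g at -2.49 (-3.47 to -3.36) and Cd22 at -2.58 (-3.05 to -3.00). Replicate 4 was high for Chrna1 at -2.48 (-4.49 to -4.41).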

How the results depend on the processing

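Under every alternative fitted, 0 probes had a limma adjusted p under 0.05, and the lowest among the named genes was 0.0606, with array weights. The 21 effector genes without overlap and the list medians were described, not tested. The effector median ran from 0.58 (normexp) to 1.18 (within slide 6). Counts of genes without overlap were 64 higher and 212 lower with normexp, 209 lower with the percentile over probes above background on all arrays, and 138 to 553 higher and 412 to 1285 lower with single arrays left out, which needs fewer arrays to separate and gives both highest counts without AAV-GFP replicate 3. Of 105 named genes, these turned sign: Popdc2 (0.00) and Nr3c1 (-0.01) with normexp, Fkbp5 (-0.01) with quantile scaling, and Per1 (0.04) and Tsc22d3 (0.01) with array weights. Within slide 5 (1 array against 1, no test) the turned values were Tsc22d3 0.85, Bst2 -0.08, Tgtp1 -0.05, Psmb8 -0.04, Mdm2 -0.04, Mpeg1 -0.12 and Gzma -0.23, and within slide 6 Stat2 -0.78, Fkbp5 -1.94, Cd180 -0.46, Cib3 -0.42 and Mx2 -0.02. With single arrays left out, Fkbp5 ran from -0.36 to 0.68, Tsc22d3 from -0.44 to 0.11 and Nr3c1 from -0.03 to 0.12. The cause was not tested. Within slide 6 the median of all genes was -0.389, and with no filter on dim probes -0.17. With the longer motif, GGAAA and GAAA parted by any 2 bases, the share of GTPase genes holding it was 12.5%, not 100%, and that of effector genes 26.8%, against 1.33% of all genes. Same-numbered samples had correlated deviations of -0.13, -0.18, -0.45 and 0.30, and none matched best with its own number, so the numbers do not pair them. With the replicate number as a block, 0 probes were called (lowest adjusted p 0.343). Signals near background limit what dim probes such as Mx1 and Eda2r can show.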
